A study of Mus musculus with 6 samples.

Results

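Cish and the genes Socs1 to Socs7 form the suppressor of cytokine signalling (SOCS) family, and all 8 were found by gene symbol among the 40564 genes of each table. All 8 passed the filter on low counts, as did 16765 genes in all. They were measured by bulk RNA sequencing of BALF cells, the cells washed out of mouse lung airspaces, in 6 untreated samples that carry 1 batch date. The groups are WT (genotype label WT), Cis KO (genotype label KO) and Cis Stat6 KO (genotype label Double KO), with 2 samples each. Both mutant groups lack CIS, the protein of Cish, and the Cis Stat6 KO group lacks STAT6 as well. The sources used here do not give strain, age, sex, the deleted part of either gene or whether a deletion was made in all cells. The labels do not say that the 2 samples of a group came from separate mice, so p-values measure only the spread between these samples.

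A cytokine that binds its receptor activates JAK kinases, which phosphorylate the receptor and then the STAT transcription factors. STAT factors induce SOCS genes, and SOCS proteins bind phosphorylated receptors or JAKs through an SH2 domain and shut the signal off, which closes a negative feedback loop. Their SOCS box also recruits a cullin 5 ubiquitin ligase that marks bound proteins for degradation. Cish is a classical STAT5 target, and alveolar macrophages depend on GM-CSF, a cytokine that signals through STAT5. Loss of 1 family member therefore raises the question whether the others are transcribed at a higher level in its place.

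The start sites of Cish and Socs3 are shown first because the motif to which activated STAT dimers bind occurs in both. RefSeq promoter windows (GRCm38.p6, 250 bases before to 50 after a gene's start site) matched 4 of the 8 genes, namely Cish, Socs1, Socs3 and Socs4. The motif searched was TTCNNNGAA, which reads the same on both strands. It occurred in 8.3% of the 32851 windows of this length, and 2 or more times in 0.457%. Cish held 2 matches and Socs3 held 1. The windows of Socs1 and Socs4 held none, and none of the 4 windows held the STAT6-type motif TTCNNNNGAA, which also reads the same on both strands and occurred in 6.95% of all windows. Each stretch is printed 5′ to 3′ on the gene's strand, with the motif in capitals.
Cish: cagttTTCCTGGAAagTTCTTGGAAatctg
Socs3: gaaaccagccTTCTTAGAAgggaggggggg
The Cish stretch lies on the plus strand at chr9:107296654-107296683. Its first match begins at the RefSeq start site and its second begins 11 bases further on, both in the untranslated first exon of transcript Cish-201 in GENCODE M21. The Socs3 stretch lies on the minus strand at chr11:117969501-117969530, and its match begins 154 bases before the RefSeq start site, outside annotated exons. GENCODE M21 starts both genes further upstream than RefSeq, Socs3 at 117970047 and Cish at 107296026. The Socs3 match therefore lies inside the GENCODE gene, not upstream of it. A match describes these letters only, and no factor binding was measured.

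Library totals ranged from 50762354 to 65937118 counts. Cis KO replicate 2 stood apart: 15855 genes had a count, against 19641 to 20431 in the other libraries, and haemoglobin genes took 3.29% of its counts against at most 0.0366%. The 12 alveolar macrophage markers were all detected in every library and summed to 15156 to 40164 CPM (read counts scaled to a common total, with TMM factors), with the highest sums in Cis Stat6 KO. Erythroid and platelet markers summed to 38642 CPM in Cis KO replicate 2 and to 15.3 to 359 CPM elsewhere, and B cell markers to 99.0 CPM against 0.491 to 20.6 CPM. The 4 eosinophil markers summed to 0 to 0.466 CPM, with 2 to 4 of them at 0 in a library and Il5ra at 0 in every library. Stat6 checked the second label, with 233 and 227 CPM in WT, 264 and 221 CPM in Cis KO, and 31.6 and 25.5 CPM in Cis Stat6 KO.

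Cish, whose protein binds phosphorylated cytokine receptors and limits STAT5 activation, kept only a small share of its reads in both mutants. Cish (ENSMUSG00000032578, mm10 chromosome 9, 107296026 to 107302784, plus strand) had 2680 and 3846 counts in WT, 278 and 154 in Cis KO, and 119 and 245 in Cis Stat6 KO. After scaling these were 46.2 and 56.2 CPM, 4.34 and 3.52 CPM, and 1.72 and 5.04 CPM. All 4 mutant libraries lay below both WT libraries, and the 2 mutant groups overlapped each other. The group means were 51.2 ± 7.05 CPM in WT, 3.93 ± 0.586 CPM in Cis KO and 3.38 ± 2.35 CPM in Cis Stat6 KO (SD, n = 2 each), so that 7.67% and 6.6% of the WT level was left. In bulk samples, fewer cells that express a gene and less RNA per cell cannot be told apart. Only whole-gene counts were analysed, and reads on exons that a deletion leaves in place count towards Cish in the same way as intact transcripts.

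The 4 comparisons were tested with edgeR's quasi-likelihood test with Benjamini-Hochberg adjustment over all 16765 genes, and a gene passed at an adjusted p under 0.05. With both CIS-deficient genotypes set against WT, Cish fell, with a log2 fold change of -3.82 ± 0.40 (SE, 4 against 2 libraries) and an adjusted p of 0.0418. In that contrast 0.167% of all genes passed. Cish did not pass in either pairwise comparison, where its log2 fold change was -3.70 ± 0.52 for Cis KO (adjusted p = 0.0624) and -3.93 ± 0.52 for Cis Stat6 KO (adjusted p = 0.0767). The pooled call was lost without WT replicate 1 (adjusted p = 0.118), without WT replicate 2 (adjusted p = 0.185) and without Cis Stat6 KO replicate 1 (adjusted p = 0.0512). The pairwise calls were made without Cis KO replicate 1 (adjusted p = 0.00476 and 0.0097) and without Cis KO replicate 2 (adjusted p = 0.0389 and 0.00581). Between Cis Stat6 KO and Cis KO the log2 difference of Cish was -0.23 ± 0.48, with a 95% interval of -1.37 to 0.91. It was 0.35 without Cis Stat6 KO replicate 1. Leaving out a library leaves its group with a lone library, which is assumed to vary like the others. The comparisons share libraries and are not independent of each other.

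None of the 7 other SOCS genes passed the test in any comparison. In Cis KO against WT 0 of 7 passed, beside 0.274% of all genes, and in Cis Stat6 KO against WT 0 of 7 passed, beside 0.131%. In Cis Stat6 KO against Cis KO 0 of 7 passed, beside 0.358%. With both mutants pooled 0 of 7 passed as well. At an unadjusted p under 0.05 the edgeR count was also 0 of 7 in each of the 4 comparisons, beside 11.1%, 5.36%, 18.3% and 5.21% of all genes in the order above, and DESeq2 and limma-voom called none of the 7 higher in a mutant than in WT. Leaving out 1 library changed these counts. Without Cis KO replicate 1, 4 of 7 passed in Cis KO against WT (Socs3 higher, and Socs2, Socs5 and Socs7 lower), where 28.8% of all genes passed. In that setting 1 of 7 passed over both mutants (Socs3, higher), beside 12.0% of all genes, and 3 of 7 passed between the mutants (Socs2, Socs5 and Socs7, higher in Cis Stat6 KO), beside 32.2%. Without Cis KO replicate 2, 1 of 7 passed between the mutants (Socs3, higher in Cis Stat6 KO), beside 2.68%.

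The libraries separated for a few of these genes, as they did for many genes of the table. In Cis KO against WT the groups did not overlap for 1 of 7 genes in the higher direction (Socs1) and 2 in the lower (Socs4 and Socs7), while 47.4% of all tested genes did not overlap in either direction. In Cis Stat6 KO against WT they did not overlap for 3 higher genes (Socs1, Socs3 and Socs6) and 1 lower gene (Socs4, by a near tie), beside 46.8% of all genes. In Cis Stat6 KO against Cis KO only Socs7 of the 7 separated, as higher, beside 50.4%. All 4 mutant libraries lay above both WT libraries for Socs1, and for Socs4 they lay at or below them, beside 13.4% of all genes. The Socs4 counts in Cis Stat6 KO and over both mutants rest on a tie at the digits printed (28.6 CPM in WT replicate 1 and in Cis Stat6 KO replicate 1), and by FPKM these groups overlapped. By FPKM Socs7 overlapped between the mutants as well. The median log2 fold change of the 7 genes was -0.15 in Cis KO and 0.08 in Cis Stat6 KO against WT, where the medians of all genes were -0.054 and -0.003.

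**Figure D1:**
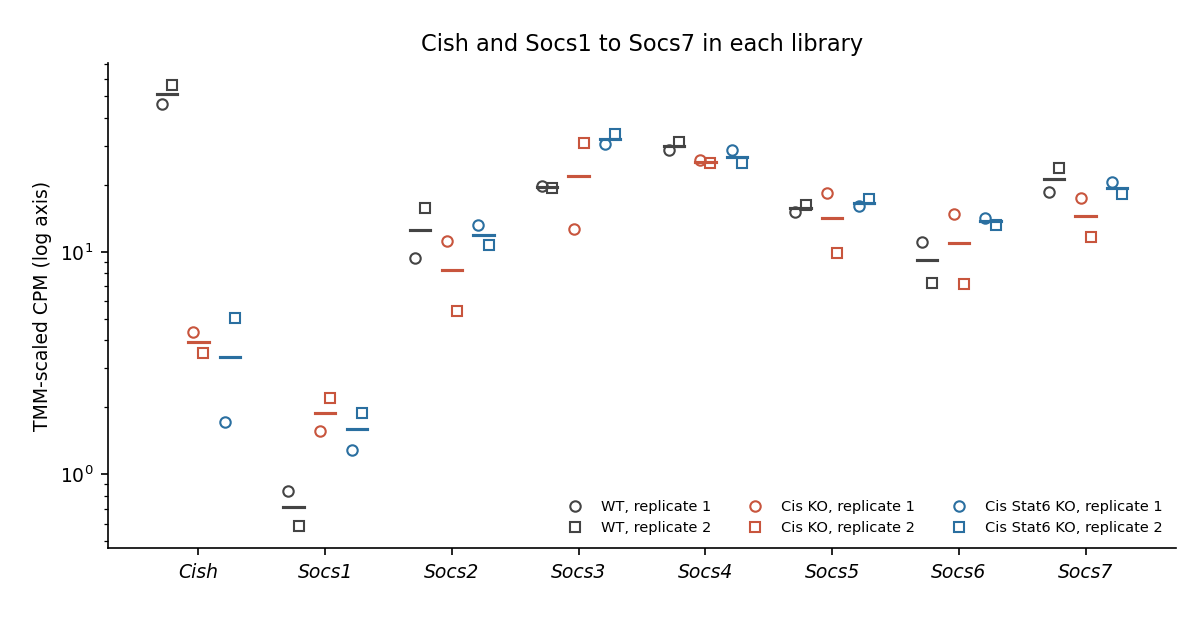
Each point is 1 library, as TMM-scaled CPM on a log axis, for the 8 genes in WT, Cis KO and Cis Stat6 KO, with a bar at the mean of each group's 2 libraries. Cish separates the WT libraries (46.2 and 56.2 CPM) from all mutant libraries (at most 5.04 CPM), and Socs1 separates them in the other direction at about 1 CPM.

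Socs1 and Socs3 encode the 2 family members with a kinase inhibitory region, which blocks JAKs directly. SOCS1 restrains interferon and interleukin 4 signalling, and its gene had the highest fitted fold change of the 7 in both mutants. Socs1 (ENSMUSG00000038037, mm10 chromosome 16, 10782240 to 10785536, minus strand) had 0.845 and 0.585 CPM in WT, 1.56 and 2.21 CPM in Cis KO, and 1.29 and 1.89 CPM in Cis Stat6 KO. Every mutant library was above both WT libraries, and the 2 mutant groups overlapped. The counts behind these values were 49 and 40 in WT and 89 to 100 in the mutants. Against WT its log2 fold change was 1.40 ± 0.65 in Cis KO (95% interval -0.17 to 2.97, adjusted p = 0.46) and 1.15 ± 0.65 in Cis Stat6 KO (-0.41 to 2.71, adjusted p = 1.0). Over both mutants it was 1.27 ± 0.59, or 2.42-fold with an interval of 0.908 to 6.44 (adjusted p = 0.975). The intervals include both no change and a several-fold higher level, and no change in Socs1 was detected. The fitted value stayed above 0 against WT under every alternative run, from 0.34 to 1.68 in Cis KO. With every mutant library above both WT libraries, refits of these libraries could hardly turn this sign, so it adds nothing to that separation. Between the 2 mutants it was -0.25 ± 0.64, and 0.01 without Cis KO replicate 2.

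SOCS3 binds the shared receptor chain gp130 and the G-CSF receptor and limits STAT3 activation. Socs3 (ENSMUSG00000053113, mm10 chromosome 11, 117966079 to 117970047, minus strand), shown above with a single STAT motif, had 19.8 and 19.3 CPM in WT, 12.7 and 31.0 CPM in Cis KO, and 30.6 and 34.0 CPM in Cis Stat6 KO. The WT libraries lay between the 2 Cis KO libraries, and both Cis Stat6 KO libraries lay above WT and overlapped Cis KO. The log2 fold change against WT was 0.16 ± 0.40 in Cis KO (95% interval -0.79 to 1.10, adjusted p = 0.878) and 0.72 ± 0.40 in Cis Stat6 KO (-0.23 to 1.67, adjusted p = 1.0). The direction in Cis KO depended on the library: without Cis KO replicate 1 Socs3 passed as higher (0.65 ± 0.17, adjusted p = 0.0277), and without Cis KO replicate 2 it was at -0.62 ± 0.18 (adjusted p = 0.261). It was also below 0 without library scaling (-0.02). Without Cis KO replicate 1 it passed over both mutants (0.68 ± 0.13, adjusted p = 0.0236), and without Cis KO replicate 2 it passed as higher in Cis Stat6 KO than in Cis KO (1.33 ± 0.19, adjusted p = 0.015).

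Neutrophil markers moved with Socs3 across the libraries. The summed level of 10 such markers was 128 and 122 CPM in WT, 113 and 686 CPM in Cis KO, and 215 and 249 CPM in Cis Stat6 KO, with 0 to 2 of the 10 at 0 in a library. The 3 libraries with the highest sums were the 3 with the highest Socs3. The part of these cells in the Socs3 values was not tested.

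Socs2, a STAT5 target whose protein is best known for limiting growth hormone receptor signalling, had a fitted value below WT in both mutants. Socs2 (ENSMUSG00000020027, mm10 chromosome 10, 95385362 to 95417180, minus strand) had 9.35 and 15.7 CPM in WT, 11.2 and 5.41 CPM in Cis KO, and 13.2 and 10.7 CPM in Cis Stat6 KO. Its groups overlapped in each comparison, and WT replicate 2 was the highest and Cis KO replicate 2 the lowest library. Socs2 had a log2 fold change of -0.59 ± 0.43 in Cis KO (95% interval -1.62 to 0.45, adjusted p = 0.571) and -0.06 ± 0.43 in Cis Stat6 KO (-1.09 to 0.97, adjusted p = 1.0). Without Cis KO replicate 1, Socs2 passed as lower in Cis KO than in WT (-1.23 ± 0.36, adjusted p = 0.0431) and as higher in Cis Stat6 KO than in Cis KO (1.16 ± 0.36, adjusted p = 0.0476). The value in Cis Stat6 KO against WT was 0.36 without WT replicate 2 and 0.08 without Cis Stat6 KO replicate 2, and that over both mutants was 0.09 without WT replicate 2.

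Socs4 and Socs5 encode paired members with long N-terminal regions, linked to epidermal growth factor receptor signalling. Socs4 (ENSMUSG00000048379, mm10 chromosome 14, 47276931 to 47296102, plus strand) was the least variable member, with 28.6 and 31.1 CPM in WT, 25.9 and 25.0 CPM in Cis KO, and 28.6 and 25.0 CPM in Cis Stat6 KO. Both Cis KO libraries were below both WT libraries, while Cis Stat6 KO replicate 1 was level with WT replicate 1 and, by FPKM, above it (4.05 against 3.94). Fitted log2 fold changes were -0.23 ± 0.19 in Cis KO (95% interval -0.69 to 0.23, adjusted p = 0.618) and -0.15 ± 0.19 in Cis Stat6 KO (-0.61 to 0.30, adjusted p = 1.0). The upper ends of these intervals are 1.17-fold and 1.23-fold, which hold for this set of libraries and do not bound what could have been missed. Socs5 (ENSMUSG00000037104, mm10 chromosome 17, 87107679 to 87137839, plus strand) had 15.1 and 16.3 CPM in WT, 18.4 and 9.91 CPM in Cis KO, and 16.0 and 17.3 CPM in Cis Stat6 KO. The Cis KO libraries lay on either side of all others. The fitted log2 fold changes of Socs5 were -0.15 ± 0.32 in Cis KO (adjusted p = 0.859) and 0.08 ± 0.32 in Cis Stat6 KO (adjusted p = 1.0). Without Cis KO replicate 1, Socs5 passed as lower in Cis KO than in WT (-0.68 ± 0.21, adjusted p = 0.0476) and as higher in Cis Stat6 KO than in Cis KO (0.75 ± 0.21, adjusted p = 0.0309), while without Cis KO replicate 2 the values were 0.23 and -0.16. Over both mutants it was 0.02 without WT replicate 2 and 0.15 without Cis KO replicate 2.

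Socs6 and Socs7 encode the other pair, linked to insulin receptor and receptor tyrosine kinase signalling. Socs6 (ENSMUSG00000056153, mm10 chromosome 18, 88665224 to 88894352, minus strand) had 11.1 and 7.25 CPM in WT, 14.8 and 7.17 CPM in Cis KO, and 14.2 and 13.2 CPM in Cis Stat6 KO. Cis Stat6 KO lay above WT, and Cis KO overlapped both. For Socs6 the log2 fold change was 0.26 ± 0.40 in Cis KO (95% interval -0.71 to 1.23, adjusted p = 0.793) and 0.58 ± 0.41 in Cis Stat6 KO (-0.39 to 1.55, adjusted p = 1.0). The Cis KO value was -0.02 without WT replicate 2 and -0.37 without Cis KO replicate 1. Socs7 (ENSMUSG00000038485, mm10 chromosome 11, 97362435 to 97398542, plus strand) had 18.5 and 23.9 CPM in WT, 17.4 and 11.6 CPM in Cis KO, and 20.5 and 18.2 CPM in Cis Stat6 KO. Cis KO lay below both other groups, which overlapped each other. The log2 fold change was -0.55 ± 0.28 in Cis KO (-1.22 to 0.12, adjusted p = 0.469), -0.13 ± 0.28 in Cis Stat6 KO (adjusted p = 1.0) and 0.42 ± 0.28 between the mutants (adjusted p = 0.447). Without Cis KO replicate 1, Socs7 passed as lower in Cis KO than in WT (-0.89 ± 0.24, adjusted p = 0.0303) and as higher in Cis Stat6 KO than in Cis KO (0.76 ± 0.24, adjusted p = 0.0476). Against WT, Cis Stat6 KO was at 0.07 without WT replicate 2.

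**Figure D2:**
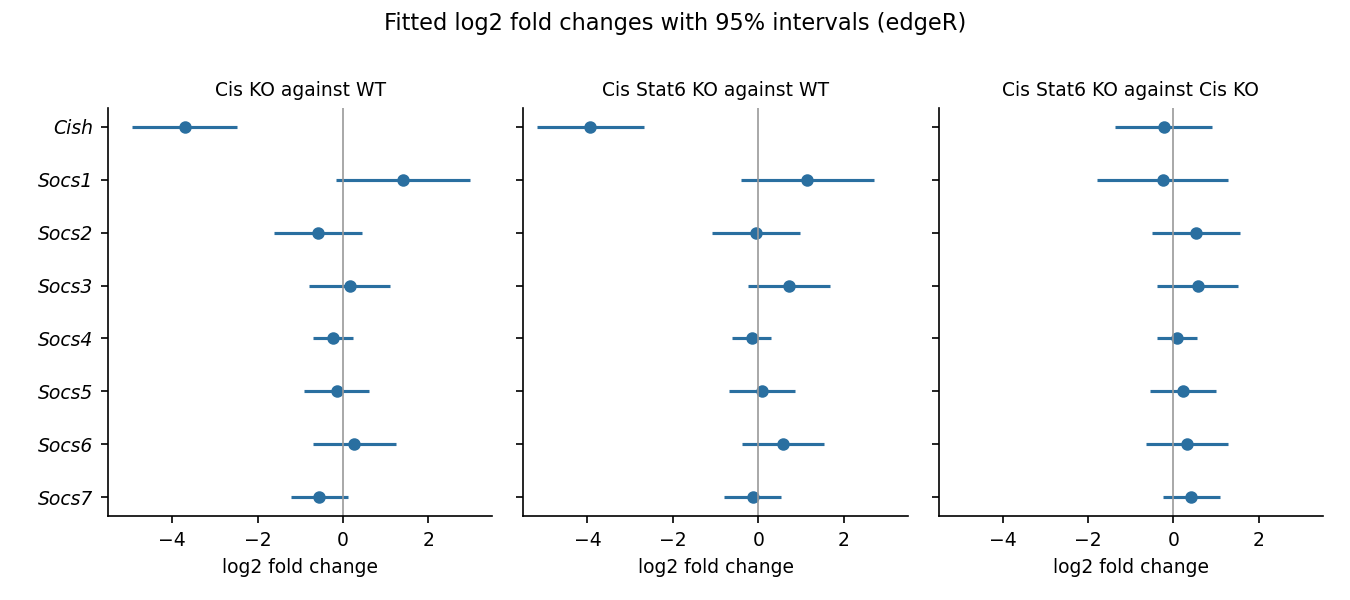
Points are fitted log2 fold changes from edgeR and lines their 95% intervals for the 8 genes, in Cis KO against WT (left), Cis Stat6 KO against WT (middle) and Cis Stat6 KO against Cis KO (right). The intervals of Cish lie below 0 in the left and middle panels, and the intervals of all 7 other genes include 0 in each panel.

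The intervals of the main fit show which higher levels it allows, but its Cis KO group includes Cis KO replicate 2. Without that library the fitted values in Cis KO against WT were higher for Socs2, Socs4, Socs5, Socs6 and Socs7. Socs6, for example, was at 0.69 against 0.26 with all libraries. Those of Socs1 and Socs3 were lower. The upper ends therefore hold for this set of libraries and do not bound what could have been missed. In Cis KO against WT their upper ends ran from 1.09-fold (Socs7) to 7.81-fold (Socs1). Those for Cis Stat6 KO ran from 1.23-fold (Socs4) to 6.54-fold (Socs1). Larger differences than these lie outside the intervals, each of which covers 1 gene at 95%.

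A single library held many of the low values. Cis KO replicate 2, the library with the fewest detected genes and the high haemoglobin share, was the lowest of the 6 for 5 of the 7 genes (Socs2, Socs4, Socs5, Socs6 and Socs7, for Socs4 level with Cis Stat6 KO replicate 2 at the digits printed) and the highest for Socs1. In log2 units from the median of the 6 libraries it stood at -1.01 for Socs2, -0.70 for Socs5, -0.75 for Socs6 and -0.67 for Socs7, and at 0.63 for Socs1. WT replicate 2 was the highest for 3 of the 7 genes. Such counts were not made over all genes, so they cannot be read as particular to this family. The part of library quality or of other cells in these values was not tested.

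**Figure D3:**
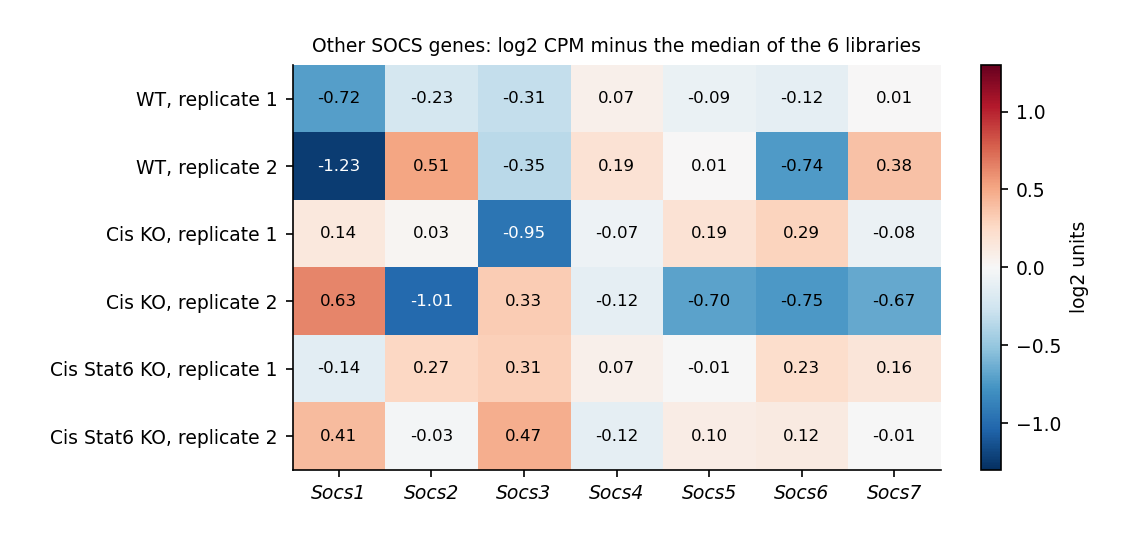
Each cell gives the log2 CPM of 1 of the 7 other SOCS genes (columns) in 1 library (rows) minus that gene's median over the 6 libraries, with red above and blue below the median. The row of Cis KO replicate 2 runs from -1.01 (Socs2) to 0.63 (Socs1), and the column of Socs4 stays within -0.12 to 0.19.

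Levels were compared between genes on the authors' FPKM values, which are divided by gene length. In WT, Cish was the highest of the 8 genes, with 6.82 and 8.18 FPKM, followed by Socs3 (6.25 and 6.47) and Socs4 (3.94 and 4.22). Then came Socs7 (2.37 and 3.03), Socs5 (2.23 and 2.37), Socs2 (0.92 and 1.53), Socs6 (0.60 and 0.92) and Socs1 (0.18 and 0.27). Neighbours in this order did not overlap, except that Socs7 and Socs5, and Socs2 and Socs6, met at an equal value. Cish was eighth and last by mean FPKM in both mutants, next to Socs1 and overlapping it, and Socs3 was first. Socs3 stood at 10.3 and 9.84 FPKM in Cis Stat6 KO and did not overlap Socs4 (4.05 and 3.05), while Socs7 and Socs5, Socs2 and Socs6, and Socs1 and Cish overlapped. In Cis KO, Socs3 (4.32 and 8.29 FPKM) lay above Socs4 (3.69 and 2.81), and all later neighbours overlapped. With each library total taken as the sum of its gene counts, the FPKM imply lengths of 1.109 to 1.128 times the union of exons in GENCODE M21. A larger library total in the authors' division would raise this ratio too, so length and total cannot be told apart. The union is 6419 bases for Cish. If the lengths used follow the union, long alternative exons lower a gene's FPKM.

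The FPKM lost with Cish was larger than any gain in the others together. The summed FPKM of Socs1 to Socs7 was 17.1 and 18.2 in WT, 16.1 and 15.0 in Cis KO, and 22.4 and 19.7 in Cis Stat6 KO. In FPKM, Cis KO lay below WT and Cis Stat6 KO lay above it, without overlap. FPKM carry no TMM factors and the sums were not recomputed with them, so the order of Cis KO and WT on scaled FPKM is not known. Mean Socs3 in Cis KO was just below WT by FPKM (6.30 against 6.36) but above it by TMM-scaled CPM (21.8 against 19.6). Summed CPM, not divided by length, were 103.3 and 114.1 in WT, 101.9 and 92.2 in Cis KO, and 124.4 and 120.3 in Cis Stat6 KO. Group means were 17.6 ± 0.75, 15.5 ± 0.757 and 21.1 ± 1.97 FPKM (SD, n = 2), and no test was made of a sum over chosen members. Against WT, Cish fell by 6.96 FPKM in Cis KO and 7.04 FPKM in Cis Stat6 KO, while the sum of the others differed by -2.11 and 3.40 FPKM. Socs3 alone differed by 3.71 FPKM in Cis Stat6 KO, more than the sum, and the other 6 together by -0.31 FPKM. Socs1 differed by 0.325 and 0.255 FPKM. The sum over all 8 genes was 25.1 ± 1.71 FPKM in WT, 16.1 ± 0.926 in Cis KO and 21.5 ± 1.69 in Cis Stat6 KO, and the share held by Cish went from 28.5% and 31.0% in the WT libraries to between 1.15% and 3.94% in the mutants.

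**Figure D4:**
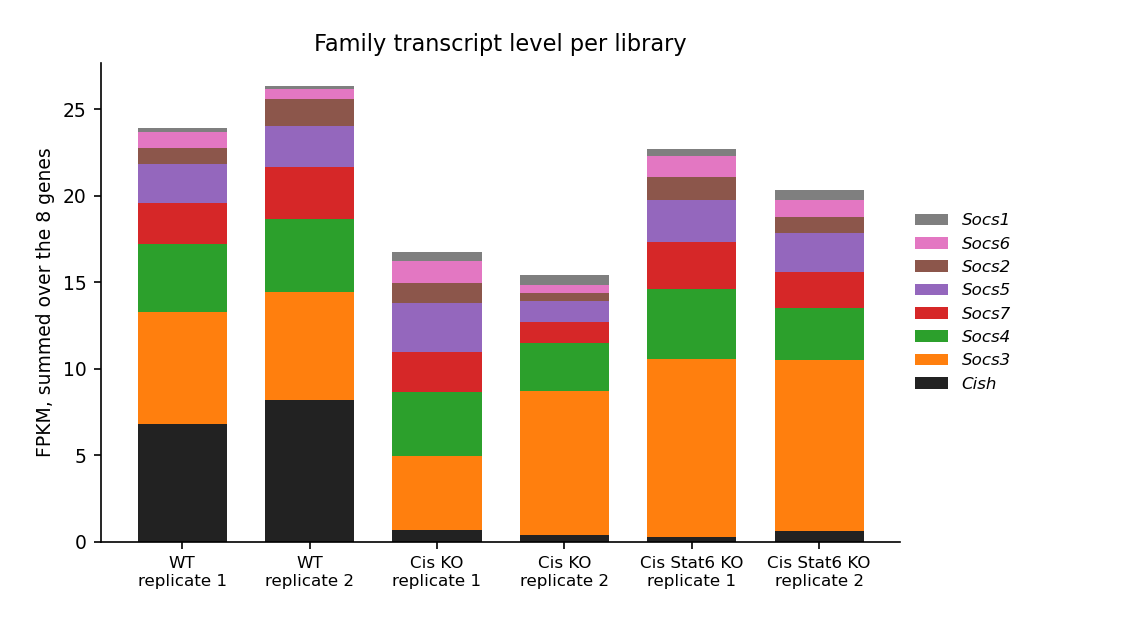
Bars stack the authors' FPKM of the 8 genes in each of the 6 libraries, with Cish in black at the base and Socs3 in orange above it. The black segment is 6.82 and 8.18 FPKM in WT and at most 0.66 FPKM in the mutants, and the orange segment is largest in Cis Stat6 KO (10.3 and 9.84 FPKM).

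The genes whose log2 CPM followed each member most closely over the 6 libraries were chosen among 9192 genes (9193 for Socs1) with a mean of at least 5 CPM. With so many genes searched over 6 libraries, high correlations arise readily, and they describe these libraries only. Rpl29, a ribosomal protein gene 864 kb from Cish on chromosome 9, followed Cish with Pearson's r = 0.981 (n = 6), with 74.3 and 175 CPM in WT and 1.64 to 3.33 CPM in the mutants. Mfge8, which encodes a secreted protein that bridges apoptotic cells to phagocytes, followed Cish with r = 0.971. Nt5dc2 (r = 0.987) and Gramd1a (r = 0.978) followed Socs1. Ifitm1, an interferon-inducible membrane protein gene (r = 0.984), and Lrg1, a secreted glycoprotein gene abundant in neutrophils (r = 0.980), followed Socs3. Lrg1 stood at 1.85 and 1.37 CPM in WT, 0.547 and 14.4 CPM in Cis KO, and 8.06 and 11.9 CPM in Cis Stat6 KO.

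The remaining members followed each other in part. Ttl and Ywhab were closest to Socs2 (r = 0.991 and 0.990), Timm29 and Fam53c to Socs4 (r = 0.974 and 0.973), and Taf2 to Socs5 (r = 0.994). Lrig2 and Entpd4b were closest to Socs6 (r = 0.993 and 0.983), and Rtf1 and Crebrf to Socs7 (r = 0.995 each). An r of at least 0.95 was reached by 108 genes for Socs2, 149 for Socs5 and 181 for Socs7, and by 6 (Cish) to 18 (Socs3) for the other members. The named genes are therefore not particular partners of Socs2, Socs5 or Socs7. Within the family, Socs2 and Socs7 had r = 0.97, Socs1 and Socs4 had r = -0.95, and Cish and Socs1 had r = -0.82. All of these use the same 6 libraries, so 1 library, its depth and its RNA quality enter every pair.

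Other genes around the family were counted in lists, and most lists had no member past the test. Of all tested genes, 0.274% passed in Cis KO against WT and 0.131% in Cis Stat6 KO against WT. Between the mutants 0.358% passed, and 0.167% with both mutants pooled. At shares this low a short list would rarely hold a called gene, so 0 called says little about a list. The ubiquitin ligase of the SOCS box had 0 of 11 tested genes called in each of the 4 comparisons, with a median log2 fold change of 0.10 in Cis KO against WT, beside -0.05 for all genes. Its scaffold Cul5 was at -0.90 ± 0.35 (adjusted p = 0.437) and its adaptor subunit Elob at 1.14 ± 0.47 (adjusted p = 0.44). Cis KO replicate 2 alone held 200.5 CPM of Elob, and the other libraries 57.7 to 72.2 CPM. For Cul5 the Cis KO libraries held 15.4 and 7.65 CPM, the lower value in replicate 2, and the others 19.3 to 23.8 CPM. Of 20 tested genes for other SOCS-box proteins, 0 were called. In Cis KO against WT the smallest p was that of Asb4, with 3.54 and 3.73 CPM in WT, 8.67 and 9.32 CPM in Cis KO, and 7.30 and 6.91 CPM in Cis Stat6 KO. Both mutants lay above WT for Asb4, with a log2 fold change of 1.31 ± 0.30 in Cis KO (adjusted p = 0.262).

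Inhibitors of JAK-STAT signalling outside the SOCS family, which are phosphatases, PIAS proteins and adaptors, had 0 of 16 genes called in each comparison. Their median log2 fold change was -0.11 in Cis KO and -0.10 in Cis Stat6 KO against WT. The receptor phosphatase gene Ptprj was at -1.17 ± 0.25 in Cis KO (adjusted p = 0.204) and -0.10 ± 0.24 in Cis Stat6 KO (adjusted p = 1.0). The adaptor gene Sh2b3, which encodes the JAK2 inhibitor LNK, was at 0.42 ± 0.22 and -0.32 ± 0.22 (adjusted p = 0.47 and 1.0).

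Of the 11 JAK and STAT genes only Stat6, the targeted gene, was called. In Cis Stat6 KO it fell by 3.01 ± 0.20 on the log2 scale against WT (adjusted p = 0.00988) and fell by 3.09 ± 0.20 against Cis KO (adjusted p = 0.0061). The first call was lost without WT replicate 2 (adjusted p = 0.0531), and both were lost without Cis Stat6 KO replicate 1 (adjusted p = 0.146 and 0.0577) or replicate 2 (adjusted p = 0.12 and 0.11). Both were also lost under log2(FPKM + 1) (0.161 and 0.118) and log2(FPKM + 0.1) (0.111 and 0.0771), and the second with only the groups compared (0.069). Of 24 cytokine genes that act through these kinases, 9 had enough counts to be tested and 0 were called. Their median log2 fold change was -1.22 in Cis KO and 0.54 in Cis Stat6 KO against WT and 1.70 between the mutants, beside -0.05, 0.00 and 0.05 for all genes. These medians rest on only 9 genes, some at low levels. Lif was at -1.91 ± 1.23 in Cis KO against WT, with 0.0913 CPM in Cis KO replicate 2, the library with the fewest detected genes. Il15 went the other way, at 0.27 ± 0.58. No change of cytokine genes as a class can be read from these medians. Osm, a STAT5-induced cytokine of the interleukin 6 family, had 14.2 and 12.2 CPM in WT, 7.52 and 3.84 CPM in Cis KO, and 14.1 and 15.8 CPM in Cis Stat6 KO, with a log2 fold change of -1.22 ± 0.36 in Cis KO (adjusted p = 0.406).

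Among 31 tested receptor genes, Il7r, the interleukin 7 receptor chain that signals through STAT5, was the only one called. It had 32.9 and 22.6 CPM in WT, 3.74 and 3.20 CPM in Cis KO, and 11.2 and 18.5 CPM in Cis Stat6 KO. The 3 groups did not overlap. Il7r fell by 3.00 ± 0.36 on the log2 scale in Cis KO against WT (adjusted p = 0.0441), and was at -0.90 ± 0.33 in Cis Stat6 KO (adjusted p = 0.828). The call was lost without WT replicate 1 (adjusted p = 0.221), WT replicate 2 (0.128), Cis Stat6 KO replicate 1 (0.0885) or Cis Stat6 KO replicate 2 (0.0875). It was also lost under limma-voom (0.0615), quality weights (0.303), no scaling (0.0533), only the groups compared (0.161), log2(FPKM + 1) (0.208) and log2(FPKM + 0.1) (0.175), so that 11 of 20 alternatives ended it. The median of the receptor list was -0.26 in Cis KO and 0.00 in Cis Stat6 KO.

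Genes known to be induced through single STAT factors were counted as well. STAT5-induced genes, the class to which Cish belongs, had, without Cish, 0 of 14 called in each comparison, and a median log2 fold change of -0.07 in Cis KO and 0.06 in Cis Stat6 KO. Pim1, a survival kinase of this list, was at -0.79 ± 0.28 in Cis KO (adjusted p = 0.431), and the cyclin gene Ccnd3 at 1.36 ± 0.46 (adjusted p = 0.429), where Cis KO replicate 2 alone held 425 CPM and the other libraries 65.9 to 157 CPM. STAT3-induced genes had 0 of 11 called in each comparison.

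The STAT6-induced list, to which Socs1 belongs, was chosen with earlier results of these data known, so a count of its called genes is no support for a change of the list. Of all genes, 0.274% passed in Cis KO against WT, 0.131% in Cis Stat6 KO against WT and 0.167% with both mutants pooled. The list had 1 of 15 tested genes called in each comparison with WT and 0 between the mutants. This gene was Flt1, which encodes a vascular endothelial growth factor receptor, with 7.04 and 5.89 CPM in WT, 97.0 and 105 CPM in Cis KO, and 81.7 and 58.1 CPM in Cis Stat6 KO. Flt1 was higher in all mutant libraries than in WT. It rose by 3.96 ± 0.26 on the log2 scale in Cis KO (adjusted p = 0.00819) and by 3.43 ± 0.25 in Cis Stat6 KO, which lacks STAT6 (adjusted p = 0.00988). The first call was lost without WT replicate 1 or 2 (adjusted p = 0.0556 and 0.0585). The second was lost without WT replicate 1 or 2 (0.0819 and 0.102) or Cis Stat6 KO replicate 1 or 2 (0.146 and 0.0963). Both were lost under log2(FPKM + 1) (0.159 and 0.192) and log2(FPKM + 0.1) (0.0893 and 0.165). The median of the list was 0.39 in Cis KO and 0.56 in Cis Stat6 KO against WT, beside -0.05 and 0.00 for all genes. These medians were not tested, and no change of the class can be read from them.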

How the data were processed

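The authors deposited, for each of the 6 samples, a table of raw read counts per gene and a table of FPKM values, which per the file headers are counts per gene length and library total. The submitters' processing notes name mm10. The sources used here name no aligner, counter or strandedness, so reads of overlapping or antisense genes cannot be told apart. From the deposited counts, edgeR 4.0.16 (R 4.3.3) kept 16765 genes (filterByExpr), scaled them by TMM (factors 0.863 to 1.077) and fitted all 6 libraries with genotype as the factor. Its quasi-likelihood F test was two-sided, with Benjamini-Hochberg adjustment over all tested genes. SE is the size of the log2 fold change over the square root of F. The biological coefficient of variation was 50.3% on 3 residual degrees of freedom, so spread between replicates, not depth, limits all but low genes. The script was tested on simulated data.

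The members and gene lists were chosen with earlier results of these data known. All 8 members are named. Of each list, called genes are named, or else genes with the smallest p and a mean of at least 1 CPM, not all of them here. For each member the 2 genes of highest correlation are named (log2 CPM, prior count 2). Some genes and 1 list that these rules name are not reported here. The 20 alternatives were DESeq2 1.42.0, limma 3.58.1 (voom, quality weights, and log2 FPKM with a pseudocount of 1 or 0.1, or 1 with a filter of at least 0.5), robust edgeR, other scalings and filters, only the groups compared, a replicate block, removal of 43 abundant technical genes, and each library left out.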

Additional observations from a re-analysis of the deposited data

How the results depend on the processing

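Cish stayed below WT under all alternatives run, a direction that its separated libraries fix in advance. In Cis KO against WT it passed under DESeq2 (-3.69), limma-voom (-3.68), no filter (-3.71) and log2(FPKM + 1) with a minimum of 0.5 (-2.46). In Cis Stat6 KO against WT it passed under DESeq2 (-3.93), limma-voom (-4.22), quality weights (-4.23), no filter (-3.95), only the groups compared (-3.95) and log2(FPKM + 1) with a minimum of 0.5 (-2.56). The pooled call was lost under log2(FPKM + 1) (-2.51) and log2(FPKM + 0.1) (-3.73). Leaving out 1 library gave -3.88 to -3.56 in Cis KO, -4.90 to -3.36 in Cis Stat6 KO, -4.30 to -3.53 pooled, and -1.19 to 0.35 between the mutants.

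Socs3 in Cis KO against WT turned below 0 under limma-voom (-0.037), quality weights (-0.035), no scaling (-0.016), log2(FPKM + 1) (-0.066, with or without the minimum) and log2(FPKM + 0.1) (-0.085). A pseudocount of 1 lowered Socs1 in Cis KO to 0.34, as it does for low genes.

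Leaving out 1 library turned other directions. In Cis KO against WT the ranges were -0.62 to 0.65 for Socs3, -0.68 to 0.23 for Socs5 and -0.37 to 0.69 for Socs6. In Cis Stat6 KO against WT they were -0.39 to 0.36 for Socs2 and -0.31 to 0.072 for Socs7. Between the mutants they were -0.55 to 0.011 for Socs1, -0.028 to 0.18 for Socs4, -0.16 to 0.76 for Socs5 and -0.12 to 0.94 for Socs6. Pooled they were -0.66 to 0.093 for Socs2 and -0.30 to 0.15 for Socs5. The number of other SOCS genes called higher ranged from 0 to 1 in Cis KO and pooled, and SOCS genes called between the mutants from 0 to 3. The upper ends come from the fits without Cis KO replicate 1, where 28.8% (Cis KO against WT), 12.0% (pooled) and 32.2% (between the mutants) of all genes were called.

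Over all alternatives the number of genes called ranged from 2 to 5349 (Cis KO against WT), 0 to 470 (Cis Stat6 KO against WT), 2 to 5999 (between the mutants) and 1 to 2228 (pooled). Without scaling the median of all genes was -0.147 in Cis KO and -0.12 pooled. Without Socs3, the log2 ratio of the summed FPKM was -0.29 in Cis KO and -0.04 in Cis Stat6 KO against WT, and 0.25 between them. Same-numbered libraries did not deviate together (r = -0.032, -0.065 and 0.013). With 2 libraries a group, this check cannot exclude that same-numbered libraries were handled together. With the replicate number as a block, 24, 12, 28 and 18 genes were called in the 4 comparisons in the order above. The block changed no call of a SOCS gene, and of the other calls above it ended that of Il7r in Cis KO (adjusted p = 0.0826). Causes were not tested.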
